A study of Mus musculus with 2 samples.

Results

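The 10 genes described here are Krüppel-like transcription factor (KLF) genes, taken by symbol from a gene table of 43346 features: Klf2, Klf3, Klf4, Klf6, Klf7, Klf9, Klf10, Klf11, Klf13 and Klf16. The table holds 2 RNA-seq libraries of X63/0 (X63-Ag8.653), an established mouse plasmacytoma line, that is a tumour line of the antibody-forming B lineage. One library came from cells left untreated, and the other from cells harvested 3 h after cycloleucine was added to 30 mM. Cycloleucine is a methionine analogue that blocks the synthesis of S-adenosylmethionine, the methyl donor of the cell, and the series asks how transcripts differ when that donor is lowered. Both groups share the line, the serum-containing medium and rRNA depletion of total RNA, and the labels do not say whether the untreated cells were given plain medium. The design text mentions triplicates, and 1 library per group was analysed here, so differences below lack a replicate check and come with no p-value.

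KLF proteins carry a conserved block of zinc fingers at the C terminus, with which they bind GC boxes and CACCC elements in promoters. Outside that block they differ, and the differing parts recruit either corepressors (SIN3 with histone deacetylases, or CtBP) or coactivators (p300 and CBP). In the B lineage KLF2, KLF4 and KLF9 are known for keeping resting cells out of division, and KLF2 also takes part in the homing of plasma cells. The related SP proteins bind the same GC-rich elements.

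The sequence just upstream of the start site was taken for 8 of the 10 members from RefSeq promoters of build GRCm38.p6, which has the coordinates of mm10. It is shown for Klf11, whose exon reads differed most, for Klf9, whose intron reads were higher while its exon reads stayed near 0, and for Klf13, the most abundant member, which barely differed. The window was 250 bases and was cut short where an annotated exon of the gene begins. Capitals mark a GC box (GGGCGG) or CACCC on either strand, and these motifs can overlap, as a GC box and CACCC do once in Klf13 and 2 GC boxes do in the capitals of Klf11. Klf11 lies on the plus strand (chr12:24651121-24651273, 153 bases shown), Klf9 on the plus strand (chr19:23140976-23141225) and Klf13 on the minus strand (chr7:63938916-63939165).

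Klf11: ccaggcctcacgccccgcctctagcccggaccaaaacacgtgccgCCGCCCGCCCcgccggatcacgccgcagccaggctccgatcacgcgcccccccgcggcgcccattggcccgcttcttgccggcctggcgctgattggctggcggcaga

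Klf9: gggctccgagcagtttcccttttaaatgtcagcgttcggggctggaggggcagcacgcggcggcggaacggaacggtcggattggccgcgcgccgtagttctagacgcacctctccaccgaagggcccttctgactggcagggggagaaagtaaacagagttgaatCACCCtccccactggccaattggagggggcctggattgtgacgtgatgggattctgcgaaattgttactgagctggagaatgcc

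Klf13: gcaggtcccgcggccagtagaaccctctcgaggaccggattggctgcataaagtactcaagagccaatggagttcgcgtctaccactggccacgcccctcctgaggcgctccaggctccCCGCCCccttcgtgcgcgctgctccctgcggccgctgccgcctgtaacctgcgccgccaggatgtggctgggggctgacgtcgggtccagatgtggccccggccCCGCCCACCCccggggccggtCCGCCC

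Over the full window of 250 bases, Klf11 held 4 GC boxes and 0 CACCC matches, Klf13 held 3 and 1, and Klf9 held 0 and 1. A GC box was found in 7 of the 8 members with a sequence and in 32.7% of 32851 RefSeq promoters of the same length, and CACCC in 5 of 8 and in 52.0%. The members' windows were 59.2% (Klf7) to 78.4% (Klf3) G and C, and the median over all promoters was 52.4%. The cyclic AMP response element TGACGTCA was found in 0 of 8 members and 1.55% of all promoters, and the FOXO element GTAAACA in 1 of 8, Klf9, and 3.17%. These matches describe the letters in each window, not binding.

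Reads in genes numbered 27127865 without treatment and 31951946 after cycloleucine. Paired values are given in that order throughout. RPKM is a gene's exon reads scaled by its exon length in kilobases and by the library's reads in genes. All 8 plasma cell markers in the table were measured, with a summed RPKM of 870 and 879, most of it from Mzb1 (398 and 401), Igj (165 and 166) and Xbp1 (154 and 158). Of the 8, Sdc1 was lower, at a fold of 0.892 (95% exact counting interval 0.861 to 0.924), and Slamf7 and Tnfrsf17 were higher, at 1.28 (1.19 to 1.38) and 1.26 (1.09 to 1.45). Their part in the results was not tested. Of the B cell markers, Cd79b (50.5 and 52.6) and Ms4a1 (3.03 and 3.11) were measured, while Pax5 (0 and 2 exon reads) and Cd79a (1 and 1) were near 0. Markers of endothelium and red cells, where KLF2, KLF4 and KLF1 are best known, summed to 82 and 92 and to 3 and 4 exon reads. Those of T and natural killer cells summed to 15 and 11, of fibroblasts to 39 and 55 and of myeloid cells to 87 and 87. Among the myeloid markers Cd68 was measured, with 40 and 46 exon reads and an RPKM of 1.17 and 1.15. Values are shares of a library, so RNA lost from some cells and RNA lowered in all cells cannot be told apart.

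Klf13 was the dominant member per kilobase of exon. It made up 60.5% and 58.7% of the summed RPKM of the 10 members. The sum itself was 33.7 and 35.7. In the untreated library Klf16 followed at 6.45, then Klf7 at 2.16, Klf10 at 2.14, Klf6 at 1.75 and Klf11 at 0.567. Klf9, Klf3, Klf4 and Klf2 lay between 0.0399 and 0.0791. The 95% counting intervals (exact Poisson) of Klf7 and Klf10 overlapped, as did those of Klf10 and Klf6, and those of neighbours among the lowest 4. After cycloleucine the order of the first 6 was the same. There the interval of Klf11 (1.39 to 1.82) overlapped that of Klf6 (1.81 to 2.30), which it had not in the untreated library, and that of Klf7 no longer overlapped that of Klf10.

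**Figure D1:**
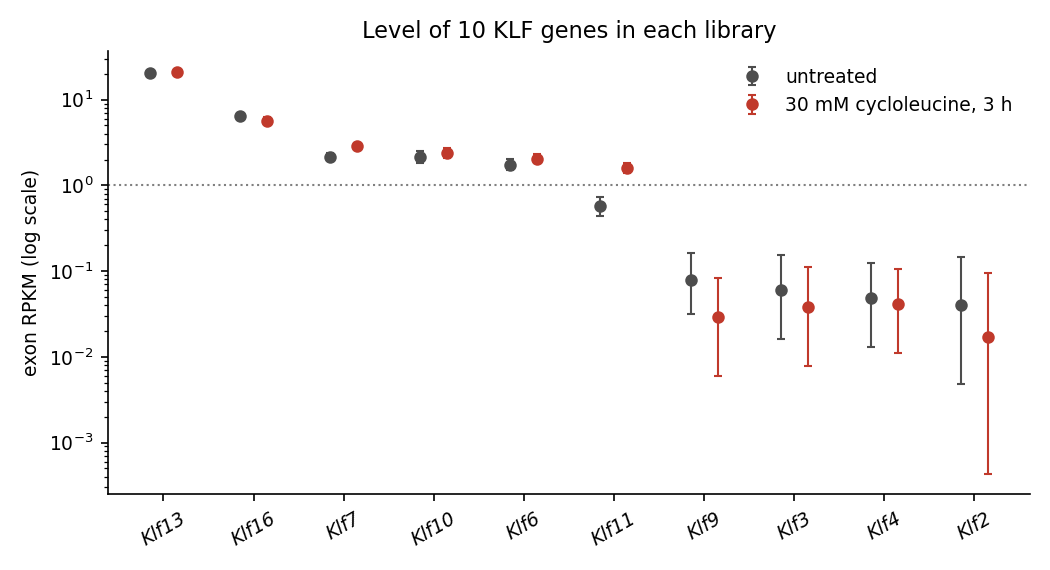
Exon RPKM (log scale) of the 10 KLF genes in the untreated and the cycloleucine library, with exact 95% Poisson counting intervals and a dotted line at an RPKM of 1. Klf13 stands highest at 20.4 and 21.0, Klf11 moves from 0.567 to 1.59, and 4 genes lie below 0.08 in both libraries.

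Of the 10 members, 6 passed the filter on low values, which asked for 50 or more exon reads over both libraries and an RPKM of 1 or more in one of them. These are called measured below. Klf11 passed through the cycloleucine library alone, so its place among the 6 depends on its being high there. With 1 library per group, a difference was counted when the log2 fold change of RPKM with 0.1 added was at least 1.5-fold. By that rule 1 member, Klf11, was higher and 0 were lower, against 3.03% and 2.47% of the 9613 features that passed. Over all 10 members without the filter the counts were again 1 and 0, against 6.36% and 5.95% of all 43346 features. At 2-fold the members' counts were again 1 and 0, against 0.728% and 0.666% of features. Of the 6, 5 had 200 to 2000 exon reads over both libraries, a range in which 2.57% of 5409 features were 1.5-fold higher and 2.00% lower. The median log2 fold change of the 6 was 0.18, from -0.03 to 0.45 by the medians of their interval bounds, and that of all features that passed 0.0035. Over all 10 members without the filter the median was -0.01, on the other side of 0.

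Klf11 and Klf10 encode the TGF-beta-inducible early response factors, repressors that recruit SIN3A and histone deacetylases. Klf11 had 65 exon reads without treatment and 215 after cycloleucine, an RPKM of 0.567 and 1.59. It was therefore 2.81-fold higher after cycloleucine (95% exact counting interval 2.12 to 3.77), or 1.34 in log2 with 0.1 added (0.98 to 1.71). All of these exon reads were uniquely placed. Reads across its exon-exon junctions numbered 3 and 12, a ratio of 3.48 with a wide interval (0.938 to 19.2). The gene lies on the plus strand of chromosome 12, from 24651371 to 24662774 in mm10, with 4 annotated transcripts and no overlapping gene in GENCODE M21. Its log2 fold change ranked 29th highest of the 9613 features and 6th among the 8131 annotated ones with mostly unique reads. Klf11 entered both sets through the cycloleucine library alone, so these ranks are not independent of its being high there.

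Klf10 (chr15:38294413-38300707, minus strand) did not share that difference. It had 177 and 231 exon reads, an RPKM of 2.14 and 2.37, and a fold of 1.11 (0.907 to 1.36). The counting intervals of the paralogues Klf11 and Klf10 did not overlap. Klf10 junction reads numbered 21 and 17, a fold of 0.704 (0.349 to 1.40), and its intron reads 21 and 22. In GENCODE M21 the gene reaches down to 38291463, and reads in that added stretch at its 3' end would be outside its counts.

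Klf13, Klf16 and Klf9 encode the basic transcription element binding proteins of the family, small factors that also bind SIN3A. Klf13 (chr7:63886347-63938915, minus strand) had 3686 and 4475 exon reads, the deepest count of the family, and an RPKM of 20.4 and 21.0. Its fold was 1.03 with an interval of 0.987 to 1.08, the narrowest of the 10 members. From uniquely placed reads the fold of Klf13 was 1.06 (1.01 to 1.11) in exons and 1.21 (1.07 to 1.37) in introns. The median log2 fold change of all features that passed on unique exon reads was 0.04. GENCODE M21 places Gm27252 and the protein-coding gene E030018B13Rik on the opposite strand, overlapping Klf13, and the use of strand is unknown. Klf16 (chr10:80567124-80577321, minus strand) had 468 and 487 exon reads, an RPKM of 6.45 and 5.70, and a fold of 0.883 (0.777 to 1.01). It was the 1 measured member below 0 in log2, at -0.18, and its interval reached just past no difference. Its few junction reads went the other way, 2 and 8, with an interval from 0.694 to 33.6.

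Klf9, which responds to glucocorticoid and thyroid hormones, was close to absent as spliced RNA, with 7 and 3 exon reads and no junction read in either library. Its intron reads numbered 18 and 47, a 2.22-fold difference (1.26 to 4.06), so that introns made up 72.0% of its untreated gene reads (Clopper-Pearson interval 50.6% to 87.9%) and 94.0% of those after cycloleucine (83.5% to 98.7%). Klf9 lies on the plus strand of chromosome 19, from 23141226 to 23166911 in the deposited gene model. GENCODE M21 extends Klf9 to 23168134, and reads past the deposited end would be outside its counts. It also places the miRNA gene Mir1192 within Klf9.

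Klf6 and Klf7, which encode related activators, were both above 0. Klf6, on the plus strand of chromosome 13 from 5861489 to 5870393, had 200 and 276 exon reads, an RPKM of 1.75 and 2.05. Its fold of 1.17 had an interval that spans no difference (0.973 to 1.41), and its junction reads, 17 and 25, gave 1.28 (0.663 to 2.52). Klf7, best known from neurons and fat cells, spans chr1:64029447-64122282 on the minus strand. It had 476 and 757 exon reads, an RPKM of 2.16 and 2.91, and a fold of 1.35 (1.20 to 1.52), so its interval lay above no difference while its value stayed under 1.5-fold. Of its untreated exon reads 56.1% were uniquely placed, against at least 98.9% in the other 5 measured members. From unique reads alone, 267 and 477, the fold of Klf7 was 1.55 (1.33 to 1.81), and from junction reads, 13 and 33, it was 2.21 (1.13 to 4.57). Klf7 thus lay past or short of 1.5-fold depending on which reads were counted. From unique reads 2 members, Klf11 and Klf7, were past 1.5-fold higher and 0 lower, against 2.80% and 1.56% of 9380 features that passed on those reads. From junction reads 3 were higher, Klf11, Klf7 and Klf16, and 0 lower, but among 1960 features with 10 to 100 such reads, as all 6 measured members had, 23.9% were higher and 18.8% lower. GENCODE M21 annotates the antisense gene Gm13748 and the noncoding gene Gm26649 on the opposite strand within Klf7, and reads of both strands may have been counted together, since the use of strand is unknown.

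The remaining low members were Klf2, Klf3 and Klf4. Klf2 and Klf4 encode activators that restrain division and that blood flow induces in endothelium, and Klf3 encodes a repressor that recruits CtBP. Klf2 (chr8:72319033-72321656, plus strand) had 2 and 1 exon reads. Klf4 (chr4:55527143-55532466, minus strand) had 4 and 4, and Klf3 (chr5:64803523-64830129, plus strand) had 4 and 3. With Klf9 these 4 members had 17 and 11 exon reads in all, and their RPKM did not exceed 0.0791 in the untreated or 0.0411 in the cycloleucine library. A difference in them was not detectable at this depth. The limit that a count of 0 allows, 3 reads, corresponds for Klf2 to an RPKM of 0.0599 and 0.0508, so its level lay under that limit in both libraries. Klf3 had more intron than exon reads, 8 and 12.

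Exon and intron reads were compared because introns are read from unspliced RNA and exons mostly from spliced RNA. In Klf11 they went apart: intron reads numbered 33 and 21, 1.85-fold lower relative to the library's gene reads (1.04 to 3.37). The intron share of Klf11 gene reads was 33.7% (24.4% to 43.9%) untreated and 8.90% (5.59% to 13.3%) after cycloleucine. Its intron to exon ratio differed by -2.36 in log2, with an exact interval of -3.34 to -1.43. Exon and intron reads together, 98 and 236, were 2.04-fold higher (1.61 to 2.61). The other members differed less in this ratio, except Klf9 at 2.46 (0.26 to 5.30) on 10 exon reads. Klf7 was at -0.44 (-0.69 to -0.20), with 495 and 580 intron reads whose fold of 0.995 (0.881 to 1.12) sat at no difference. Klf13 was at 0.04 (-0.12 to 0.21), with 653 and 816 intron reads. Klf6 had 24 and 42 intron reads, a 1.49-fold difference (0.879 to 2.57), and a ratio change of 0.33 (-0.47 to 1.18). Klf16, with 16 and 24 intron reads, was at 0.51 (-0.47 to 1.56), and Klf10 was at -0.32 (-1.30 to 0.67).

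**Figure D2:**
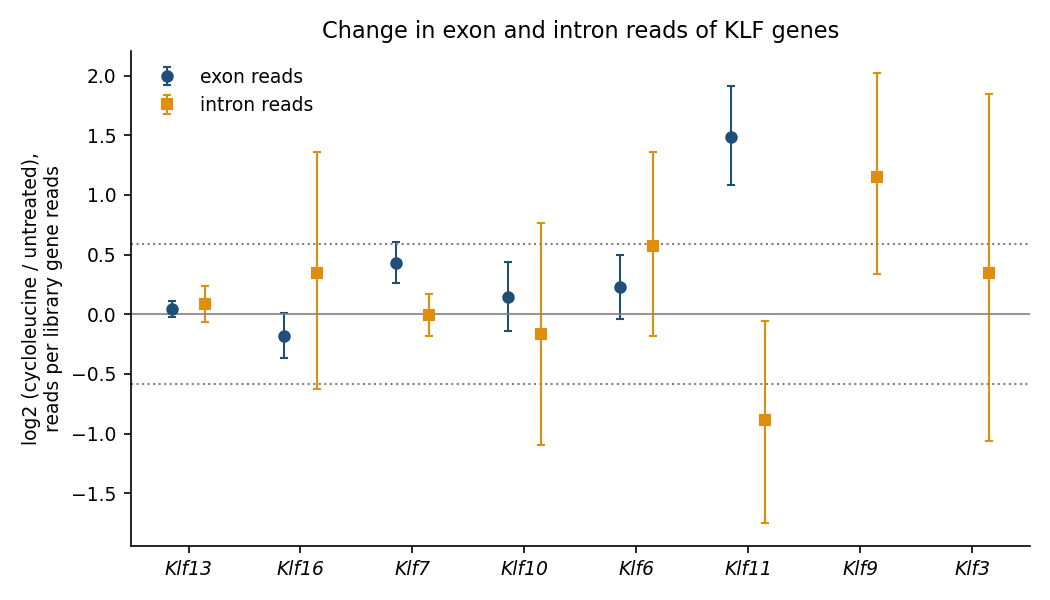
Log2 ratio of cycloleucine over untreated reads, relative to each library's gene reads, for exons (circles) and introns (squares) of KLF genes with at least 20 reads of that kind, with exact 95% counting intervals and dotted lines at 1.5-fold. Klf11 is the gene whose exon interval (2.12-fold to 3.77-fold) and intron interval (1.04-fold to 3.37-fold lower) lie on opposite sides of 0, and Klf13 sits near 0 in both.

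Intron counts of this size varied widely between the libraries. Among 11747 annotated features with at least 50 intron reads, 7.24% were higher and 5.38% were lower in introns by 1.5-fold or more. Of the 5 members in that set, 1 was higher (Klf9) and 1 lower (Klf11). Both had fewer than 100 intron reads, and among the 2516 features with 50 to 100 of them 16.7% were higher and 12.1% lower. The ratio was also taken over 6803 genes with 100 or more intron reads and 200 or more exon reads, of which the middle 95% lay between -0.66 and 0.72, and both members with such depth, Klf7 and Klf13, lay inside that range.

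Among 8271 annotated genes with at least 100 exon and 50 intron reads, the gene nearest to Klf11 in exon and intron change together was Mat2a, which encodes the S-adenosylmethionine synthetase of most tissues. Mat2a was at 1.35 for exons and -1.01 for introns, where Klf11 was at 1.34 and -0.88 with 0.5 added to each intron count. The next were the noncoding gene Crnde at 1.06 and -0.35 (33 and 88 exon reads) and Zbtb24, a zinc finger gene, at 0.99 and -0.30 (81 and 199 exon reads). Likeness here is a distance over 1 pair of libraries. In the same set 13 genes were at least 2-fold higher in exon reads, and 3 of these, Mat2a, Klf11 and Crnde, had fewer intron reads relative to the library after cycloleucine. Crnde had 117 and 108 intron reads, a small difference for which no interval was computed. The share of the 8271 genes below 0 in introns was not computed. Over the 11747 annotated features with at least 50 intron reads the median intron log2 change was 0.04, so values below 0 were common. The 3 of 13 are therefore no excess of such genes. Klf11 had far fewer reads than Mat2a, whose exon reads numbered 5419 and 16313.

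**Figure D3:**
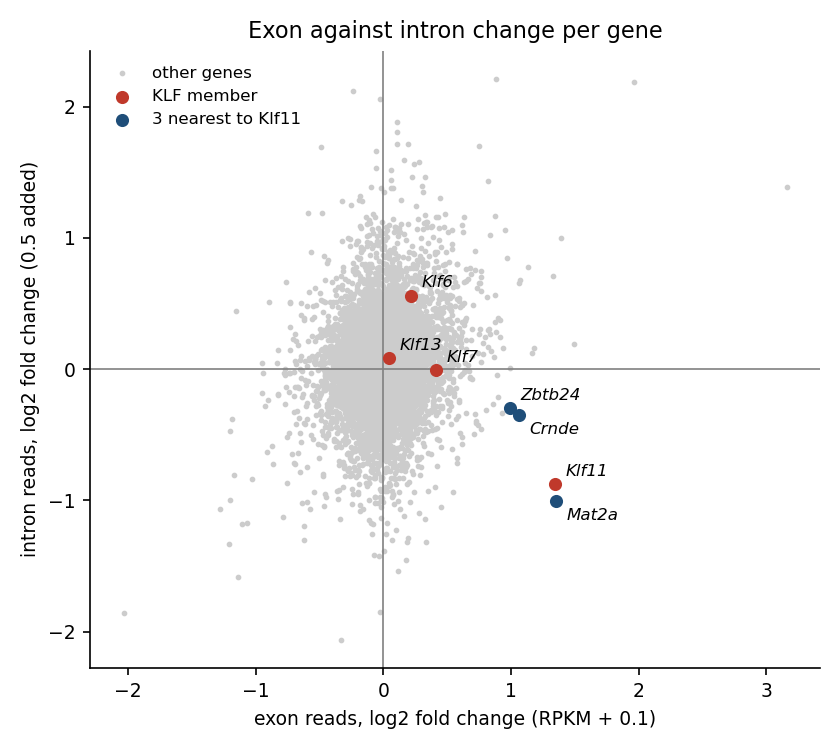
Exon log2 fold change (RPKM with 0.1 added) against intron log2 fold change (0.5 added to each count) for 8271 genes, 1 point each, with the 4 KLF members in that set and the 3 genes nearest to Klf11 marked. Klf11 (1.34 and -0.88) lies beside Mat2a (1.35 and -1.01), and Klf6, Klf7 and Klf13 lie within the cloud.

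Of all 9613 features that passed the filter, 50.9% were above 0, the share to set beside the counts above and below 0 that follow. Ranges beside a list's median, here and below, run between the medians of its genes' interval bounds and are no confidence intervals. Of the 16 other KLF and SP genes, 5 passed the filter, 4 above and 1 below 0, with a median log2 fold change of 0.37 (0.27 to 0.46). Klf5, an activator of epithelial growth and the 1 of these at least 1.5-fold higher, had 53 and 107 exon reads, an RPKM of 1.14 and 1.95 and a fold of 1.71 (1.22 to 2.43). Its junction reads numbered 7 and 19. Sp1, a widely expressed activator, had 1812 and 2775 exon reads and a fold of 1.30 (1.23 to 1.38). Sp3, its close relative, had 1413 and 2155 and a fold of 1.29 (1.21 to 1.39). Sp4 was at 1.07 (0.898 to 1.28). Sp2 was at 0.730 (0.579 to 0.920), but 13.8% of its reads were uniquely placed. Klf8, a repressor that like Klf3 binds CtBP, fell short of the filter with 84 and 103 exon reads and an RPKM of 0.595 and 0.619. Klf12, also of the CtBP group, had 0 and 1 exon reads beside 81 and 108 intron reads. The other 9 had at most 39 exon reads in a library, the highest being Sp9 with 30 and 39.

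**Figure D4:**
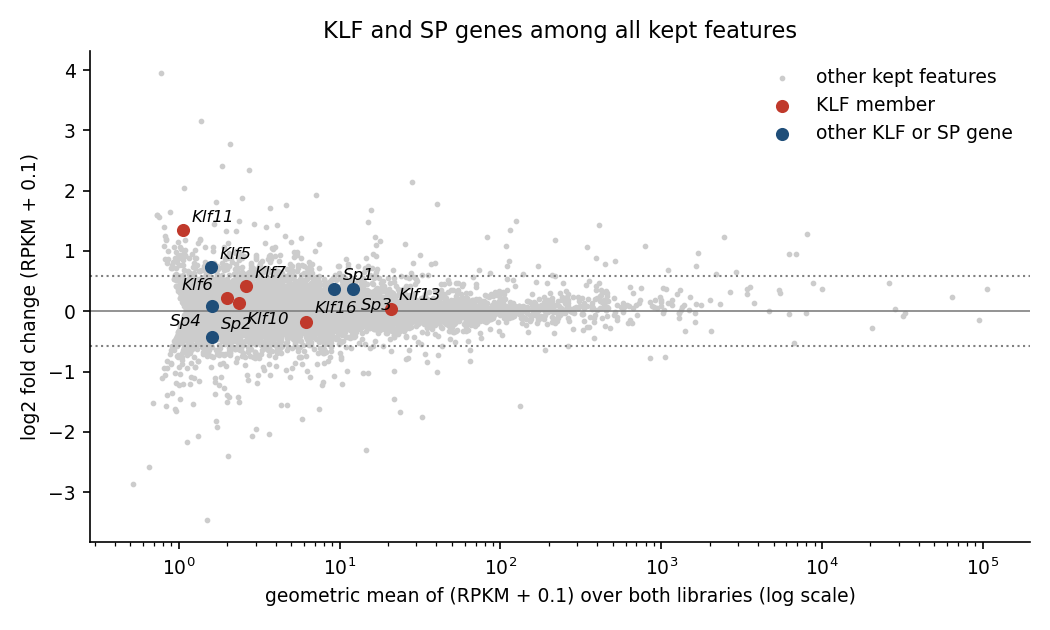
Log2 fold change (RPKM with 0.1 added) against the geometric mean of both libraries' values (log scale) for 9613 features, with the 6 measured KLF members and 5 other KLF and SP genes marked and dotted lines at 1.5-fold. Klf11 at 1.34 and Klf5 at 0.73 lie above the upper line, and Klf13 at 0.04 lies near 0 in a narrower part of the cloud.

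Genes that act with the KLF proteins came next. Of 10 cofactor genes 9 were measured, 4 above and 5 below 0, none past 1.5-fold, with a median of -0.02. The coactivator genes Ep300 and Crebbp were at 0.27 (0.18 to 0.35) and 0.15 (0.04 to 0.26), and Sin3a, the scaffold that KLF10, KLF11, KLF13 and KLF16 bind, at -0.21 (-0.31 to -0.11), with 46.5% of its reads uniquely placed. The 5 ubiquitin ligase genes for KLF proteins had a median of -0.0063. One of them, Siah1a, which encodes a ligase for KLF10, was past 1.5-fold at 0.69 (0.35 to 1.05), with 95 and 185 reads of which 71.8% were uniquely placed. It has close copies in the mouse genome. Wwp1 and Fbxw7 were at -0.03 and 0.01.

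Signals known to induce members were described in the same way. TGF-beta signalling, which induces Klf10 and Klf11, had 8 of 11 genes measured, 6 above and 2 below 0, none past 1.5-fold, and a median of 0.20 (0.06 to 0.34). Among these Smad7, a feedback inhibitor, had 104 and 175 exon reads, an RPKM of 0.848 and 1.21, and was at 0.47 (0.14 to 0.80). Smad7 passed the filter through the cycloleucine library alone, so its place in these counts depends on its being high there. Without the filter the median of this list was 0.18. The genes below 0 were Smad2 at -0.08 (-0.25 to 0.09) and Smad4 at -0.02 (-0.15 to 0.12). The receptor gene Tgfbr2, not measured and named after its values were seen, had 26 and 65 exon reads, a fold of 2.12 (1.33 to 3.49). Its intron reads, 185 and 177, outnumbered its exon reads and were not higher. Tgfb1 and Pmepa1, also not measured, had 14 and 18 and 2 and 4 exon reads. The SMAD corepressor genes Skil and Ski were at 0.39 (0.25 to 0.53) and 0.33 (0.22 to 0.44). The kinase and factor genes that act upstream of Klf2 and Klf4 had 6 of 6 measured, 3 above and 3 below 0, and a median of 0.02, with Foxo1 at 0.30 (0.14 to 0.46), Mapk7, which encodes ERK5, at 0.23 and Map2k5 at -0.19. Glucocorticoid-responsive genes, the class to which Klf9 belongs, had 4 of 6 measured and a median of 0.02. Of these Fkbp5 was at -0.35 (-0.52 to -0.19), the receptor gene Nr3c1 at 0.24 (0.16 to 0.31) and Tsc22d3 at 0.17.

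Among genes downstream, lymphocyte targets of KLF2 were too low to pass the filter. The sphingosine phosphate receptor gene S1pr1 had 21 and 24 exon reads, and the integrin gene Itgb7 had 36 and 61. Inhibitors of cyclin-dependent kinases, which several KLF proteins are known to induce, had 5 of 6 measured, 4 above and 1 below 0, none past 1.5-fold, and a median of 0.15 (-0.11 to 0.41). Cdkn1b, which encodes p27, had 724 and 1227 exon reads and was at 0.52 (0.39 to 0.65), Cdkn2d was at 0.19 (-0.14 to 0.51) and Cdkn1a, which encodes p21, at 0.15 (-0.11 to 0.41).

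**Figure D5:**
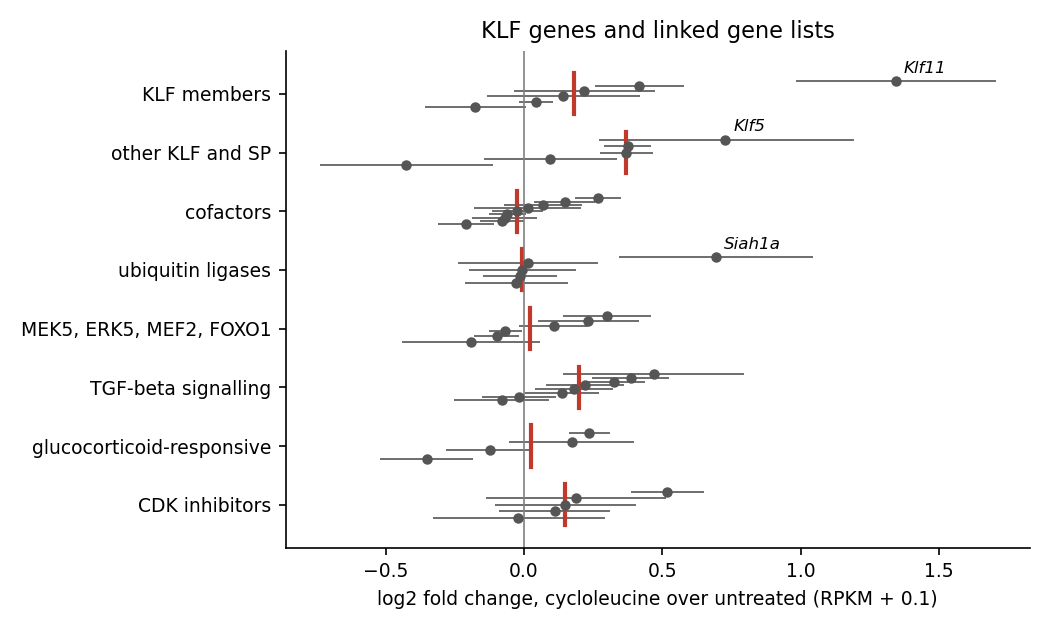
Log2 fold change (RPKM with 0.1 added) of each measured gene in the KLF members and 7 linked lists, with 95% counting intervals and a red bar at each list's median. Genes past 1.5-fold are named, and they are Klf11 (1.34), Klf5 (0.73) and Siah1a (0.69).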

How the data were processed

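Per the file headers, the deposited table gives raw read counts per gene, total and uniquely placed, for whole genes and for their exons, introns and exon-exon junctions, and RPKM values that the authors derived from them. RPKM recomputed from exon reads (gene reads for features without a transcript), exon length and total gene reads matched in 43346 of 43346 features of each library, within a share of 0.0001 of the value plus 0.0001. The submitters' processing notes name mm10 as the build. Which aligner, counter and annotation were used, and whether strand was, is not given here in any source used. Starts were moved by 1 to count from 1, strands and overlaps come from GENCODE M21, and promoters from RefSeq. Some genes, among them Klf3, Klf5, Klf9, Klf10 and Klf12, reach further in GENCODE M21 than in the deposited gene model.

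Differences were computed in Python 3.11.15 (numpy 2.4.6, pandas 2.3.3, SciPy 1.17.1) as log2 of RPKM plus 0.1, cycloleucine over untreated. Intervals are 95% and exact: Clopper-Pearson for the cycloleucine share of a gene's reads (divided by the ratio of the totals), Poisson for a level, and conditional for the intron to exon odds ratio. They cover counting error only, and reads from PCR without molecular identifiers are no independent molecules. The intron to exon ratio itself has 0.5 added to each count. The range beside a list's median joins the medians of its genes' lower and upper bounds and is no confidence interval of that median. Junction folds use uniquely placed reads and totals. The members and lists were chosen with earlier results of these data known. Named genes were all members, the measured KLF and SP genes, up to 3 genes per other list with the largest difference, and the 3 genes nearest to Klf11. Other genes named, among them markers, unmeasured genes, Maz and E2f1, were chosen after their values were seen. The calculation was tested on simulated Poisson counts. These hold the counting error that the intervals assume and no other variation between libraries, so the test checks the arithmetic alone. Some listed genes are not reported here.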

Additional observations from a re-analysis of the deposited data

How the results depend on the processing

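No paired analysis was possible because either group consisted of 1 library. Klf11 was at least 1.5-fold higher in each setting in which it passed the filter, from 0.73 in log2 (pseudocount of 1 RPKM) to 1.42 (uniquely placed reads) by exon reads. By junction reads, 3 and 12, it was 3.48-fold higher with a wide interval (0.938 to 19.2). The exon settings all reuse the same 65 and 215 reads. Where a filter applied, Klf11 passed through the cycloleucine library alone, so these settings are no independent check of its being high there. Klf11 did not pass an RPKM of at least 5, where 2 members remained, 0 were past 1.5-fold and the members' median was -0.066. That median was -0.01 with no filter. The number of members at least 1.5-fold higher was 2 with uniquely placed reads (Klf11 and Klf7, the latter at 0.61), against 2.80% of 9380 features. With exon-exon junction reads it was 3 (Klf11, Klf16 and Klf7), but 23.9% of 1960 features with 10 to 100 such reads were that much higher. Klf16 counted there on 2 and 8 reads (0.694 to 33.6). No measured member was 1.5-fold lower in these settings, against 1.56% of features with uniquely placed and 18.8% with junction reads. Rescaling by a trimmed mean shifted all values by 0.011. Over all measured features, 291 were 1.5-fold higher and 237 lower. These counts became 150 and 108 under a pseudocount of 1, 122 and 82 under the RPKM minimum of 5, 2755 and 2581 without a filter, 70 and 64 at 2-fold, 130 and 108 among annotated and mostly unique features, and 139 and 108 with 200 to 2000 reads, a range chosen after seeing the data, as were those of 50 to 100 intron reads and 10 to 100 junction reads. With uniquely placed reads 263 were higher and 146 lower. The median of other KLF and SP genes was 0.16 with no filter, and that of glucocorticoid-responsive genes 0.24 with an RPKM of at least 5. Stricter filters leave fewer features, and the cause of the other differences was not tested.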

Other observations

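Other zinc finger and E2F genes whose proteins bind GC-rich promoter elements, a list made after the KLF values were seen, showed a mixed picture. Of 14 listed, 9 were measured, 5 above and 4 below 0, with none past 1.5-fold and a median log2 fold change of 0.04 (-0.10 to 0.19). Vezf1 was at 0.33 (0.22 to 0.44), Zfp148 at 0.32 (0.21 to 0.44) and Zbtb7a at 0.30 (0.20 to 0.40), close to Sp1 and Sp3 in size. Maz, with the highest RPKM of the list at 37.5 and 35.5, was at -0.08 (-0.16 to -0.0017), and E2f1 was at -0.24 (-0.36 to -0.12). The EGR genes and Wt1 had at most 19 exon reads in a library.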
